A study of Mus musculus with 4 samples.

Results

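The miR-379/410 cluster is a run of miRNA hairpins in the imprinted Dlk1-Dio3 region of mouse chromosome 12. Its members were taken by number, with any letter and either arm. They were all mature miRNAs in the deposited data named miR-379, miR-410 or one of 31 numbers between them in the cluster. This gave 45 of the 921 miRNA entries, from 30 hairpins. The rule uses no measured value. The plasma libraries came from C57BL/6 mice, male and 8 weeks old by the methods of the study. In the 2 AMI libraries the left anterior descending coronary artery had been permanently ligated, and in the 2 Sham libraries the chest had been opened in the same way without ligation. The sources used here do not say when after surgery the blood was drawn, or if each library was a mouse of its own, so the p-values measure the spread between libraries, which may be technical. Plasma is the cell-free part of blood, and a lower level of a miRNA there may come from less of its own release or from more RNA of other kinds, which cannot be told apart in these libraries.

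miRNAs of this cluster are made only from the chromosome inherited from the mother, as are the non-coding RNAs Meg3, Rian and Mirg of the same region, and they are thought to be cut from one long transcript. They are best known from brain, placenta and developing muscle, and mice without the cluster have trouble keeping up blood glucose at birth. A hairpin can give a mature miRNA from each arm, named 5p and 3p, and bases 2 to 8 of the mature miRNA, the seed, choose most of its target mRNAs.

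In GRCm38 the hairpins with entries lay at chr12:109709060-109743795, a stretch of 34.7 kb. In GENCODE vM21, 12 of the 30 lay inside the non-coding gene Mirg (chr12:109729764-109749460, plus strand), 8 overlapping an exon and 4 in an intron. The other 18, from Mir379 to Mir487b, lay upstream of it in no annotated host gene, so "in Mirg" describes only the downstream part of the cluster in this annotation. Of the mature members, 42 were found by name among the RefSeq sequences (GRCm38.p6), and 29 of all 45 lay upstream of Mirg and 16 inside it.

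The sequences below are those of members that were lower in AMI plasma, in the order of their hairpins, with the seed in capitals. No seed was shared among these 9.
miR-379-5p: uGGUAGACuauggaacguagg
miR-411-5p: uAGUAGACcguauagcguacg
miR-329-3p: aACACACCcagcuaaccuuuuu
miR-495-3p: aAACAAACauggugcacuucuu
miR-376b-5p: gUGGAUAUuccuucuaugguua
miR-496a-3p: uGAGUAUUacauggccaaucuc
miR-541-5p: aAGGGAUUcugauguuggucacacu
miR-369-5p: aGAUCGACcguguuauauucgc
miR-369-3p: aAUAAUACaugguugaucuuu
miR-379-5p lies at chr12:109709065-109709085 at the upstream end and miR-369-3p at chr12:109743466-109743486 near the downstream end, both on the plus strand. The tenth lower member was miR-376c-3p.

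For contrast, these are the sequences of the 3 members with the most positive fold changes, also with the seed in capitals.
miR-667-3p: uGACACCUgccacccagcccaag
miR-668-3p: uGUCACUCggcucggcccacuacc
miR-485-3p: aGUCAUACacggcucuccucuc
miR-668-3p and miR-485-3p come from neighbouring hairpins that overlap exons of Mirg, at chr12:109734774-109734797 and chr12:109734946-109734967 on the plus strand, and miR-667-3p comes from upstream of it, at chr12:109720061-109720083.

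The AMI libraries held 9016139 and 11461361 unique molecular identifiers (UMIs, tags that count each captured molecule once), and the Sham libraries held 7460687 and 4842247. For single miRNAs, levels are given as CPM, the usual counts-per-million scale, over the miRNA UMIs of the library after TMM scaling. Pairs of values are in the order AMI 1, AMI 2 and Sham 1, Sham 2. The AMI libraries were unlike the Sham libraries in more than this cluster. The hepatocyte miR-122-5p was at 67860 and 95970 CPM in AMI and 5847 and 17430 in Sham plasma, and miR-133a-3p of striated muscle was at 58670 and 50620 in AMI and 5707 and 3232 in Sham plasma. The red cell list (3 of 3 counted) summed to 37450 to 45000 CPM in AMI and 45180 to 91790 in Sham plasma, so that the groups nearly met. None of the 3 was called. miR-451a had a log2 fold change of −1.26, while miR-486a-5p and miR-144-3p were at 0.15 and 0.27. Of all 772 miRNAs tested, 114 were higher and 98 lower in AMI plasma (86 and 147 when scaled by library size alone).

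The cluster took a smaller part of plasma miRNA in AMI than in Sham mice. Its 45 entries together held 6171 and 7625 UMIs in AMI plasma, against 9892 and 10847 in Sham plasma, although the AMI libraries were the deeper ones. As a share of all miRNA UMIs this was 0.0689% and 0.0668% in the AMI libraries against 0.133% and 0.224% in the Sham libraries. The AMI mean was 0.0679% ± 0.00149 (SD, n = 2) and the Sham mean 0.179% ± 0.0649 (SD, n = 2), a ratio of 2.63. Both AMI libraries lay below both Sham libraries, and the Sham libraries lay far apart. An exact two-sided permutation test of 2 against 2 libraries cannot go below 0.333. Scaled by TMM, the cluster summed to 705 and 791 CPM in AMI and to 1313 and 1876 CPM in Sham plasma.

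**Figure D1:**
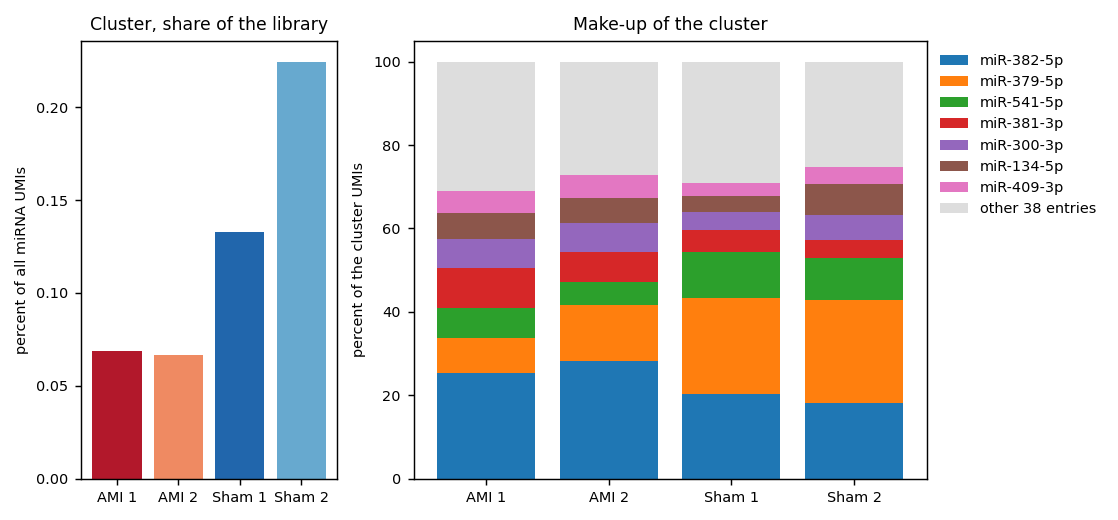
Left, the share of each library's miRNA UMIs that the 45 cluster entries held (percent, 1 bar per library). Right, how the cluster UMIs of each library divided among its 7 most abundant entries and the other 38 (percent). The share was under 0.07% in both AMI libraries and over 0.13% in both Sham libraries, and miR-379-5p took a smaller part of the cluster in both AMI libraries.

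Few members made up most of the cluster. The most abundant 2, miR-382-5p and miR-379-5p, held 33.7% and 41.6% of the cluster UMIs in AMI plasma, against 43.4% and 42.8% in Sham plasma, and the top 10 held 75.2% to 82.4%. Within the cluster the order of these 2 differed between the groups. miR-379-5p made up 8.44% and 13.5% of the cluster in the AMI libraries against 23.1% and 24.7% in the Sham libraries, while miR-382-5p made up 25.3% and 28.1% against 20.2% and 18.1%. These shares need no scaling between libraries, and the groups did not overlap for either miRNA. By CPM, a different measure, AMI lay wholly below Sham for both miR-379-5p and miR-382-5p. It did so in 30.4% of all miRNAs tested, and lay wholly above in 35%. No such background was taken for shares of the cluster. The shares are parts of 1 whole, so a smaller part for miR-379-5p leaves a larger part for the others. The log2 fold change of miR-382-5p itself was −0.59.

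Of the 45 members, 37 had enough UMIs to be tested, and 10 of these fell in AMI plasma, with adjusted p-values below 0.05 (edgeR quasi-likelihood test, adjusted over all 772 miRNAs). None was called higher, by edgeR or by DESeq2. By an unadjusted p under 0.05, 2 members were higher and 17 lower with edgeR, and 1 was higher and 19 lower with DESeq2. Over all 772 miRNAs, 303 had such a p with edgeR in either direction. Over all miRNAs tested, 12.7% were called lower and 14.8% higher, 27.5% in all. The 27.0% of members called was thus close to the share called over all miRNAs, and all of the calls among members were in the same direction. The median log2 fold change was −0.96 over the members and 0.04 over all miRNAs tested. A negative log2 fold change was found for 33 of the 37 members, beside 47.9% of all miRNAs tested. Of these 33, miR-154-5p, miR-376a-3p, miR-409-5p and miR-666-3p turned positive when scaled by the 6 references of the study. Among the references, miR-154-5p is itself a member and miR-434-3p is from the same Dlk1-Dio3 region. Both AMI libraries lay below both Sham libraries for 30 members, where 30.4% of all miRNAs tested did so. In 3 members both AMI libraries lay above both Sham libraries, as in 35% of all miRNAs tested.

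**Figure D2:**
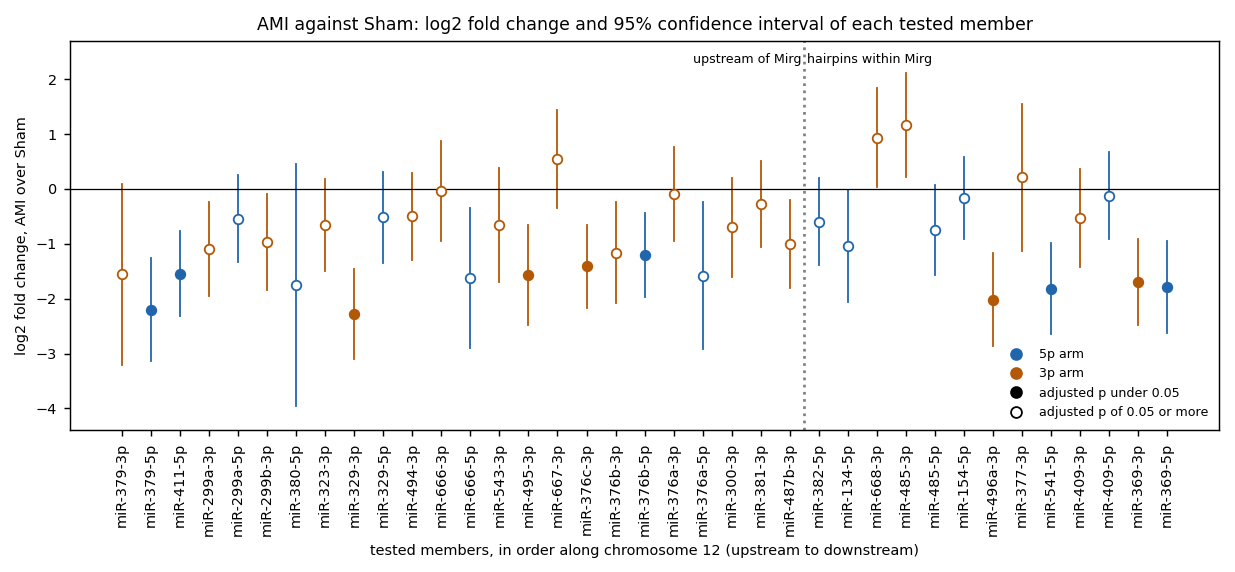
Log2 fold change (AMI over Sham, y axis) of the 37 tested members with 95% confidence intervals from edgeR, in chromosomal order, with 5p arms in blue and 3p arms in brown. The 10 filled points passed the test and all lie below 0, from upstream (miR-379-5p, −2.20) to downstream (miR-369-5p, −1.79).

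Fewer calls were made with 1 AMI library, among members and over the whole table alike. Without AMI 1, 2 members were called lower (miR-329-3p and miR-496a-3p), beside 4.1% of all miRNAs tested, and without AMI 2 there were 4, namely these and miR-379-5p and miR-495-3p, beside 3.58%. In those fits the lone library is assumed to vary like the others. Without Sham 1 there were 19 (16.8% of all) and without Sham 2 there were 11 (15.2% of all), the 10 included in both. The median of the members was −1.11 without Sham 1 and −0.58 without Sham 2. Other scalings moved the median of all miRNAs by −0.27 (library size) to 0.17 (6 reference miRNAs the study chose from sequencing of such plasma). The median of the members stood −1.018 to −1.003 from it under each of 5 scalings. A scaling shifts all miRNAs by nearly the same amount, so this gap could hardly move and is no check of the result.

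**Figure D3:**
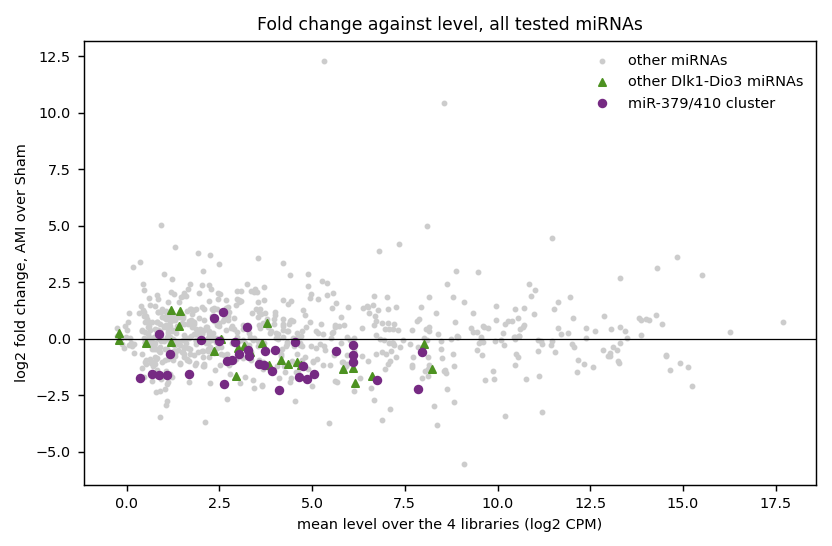
Log2 fold change (AMI over Sham, y axis) against mean level over the 4 libraries (log2 CPM, x axis) for all 772 tested miRNAs. The cluster members (purple) lie mostly below 0, at a median of −0.96, with other Dlk1-Dio3 miRNAs as green triangles at a median of −0.48.

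At the upstream end of the cluster, miR-379-5p and its neighbour miR-411-5p fell in AMI plasma. miR-379-5p had 521 and 1030 UMIs in AMI plasma, against 2288 and 2681 in Sham plasma, or 83.2 ± 33.5 CPM (SD, n = 2) against 384 ± 113 (SD, n = 2). The larger AMI level (107 CPM in AMI 2) was well below the smaller Sham level (304 CPM in Sham 1). Its log2 fold change was −2.20 (SE 0.43, adjusted p = 0.00397 from edgeR), or 4.61-fold lower, though without AMI 1 the adjusted p was 0.0875. miR-411-5p was at 15.8 and 18.3 CPM in AMI plasma, against 47.3 and 51.9 in Sham plasma, means of 17.01 ± 1.76 (SD, n = 2) against 49.6 ± 3.27 (SD, n = 2). Both groups were tight, and its log2 fold change of −1.54 (SE 0.36) passed with an adjusted p of 0.00860 from edgeR, which became 0.179 without AMI 1 and 0.100 without AMI 2. The 3p arm miR-379-3p was rare, with 4 and 9 UMIs in AMI plasma, against 17 and 11 in Sham plasma, and did not pass at −1.55 (adjusted p = 0.1499).

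The steepest fall of the cluster was that of miR-329-3p. In rat neurons miR-329 is known, with miR-134 and miR-381, as a miRNA that neuronal activity induces and that acts on dendrites. It had 48 and 59 UMIs in AMI plasma, against 181 and 189 in Sham plasma, or 5.80 ± 0.450 CPM (SD, n = 2) against 28.4 ± 6.13 (SD, n = 2). Its log2 fold change of −2.28 (SE 0.37, adjusted p = 0.00129 from edgeR) kept its call without any one library. The seed of miR-329-3p is also that of miR-362-3p, a miRNA from outside the cluster. The other arm, miR-329-5p, had 66 and 76 UMIs in AMI plasma, against 67 and 77 in Sham plasma, with a log2 fold change of −0.52 (SE 0.38, adjusted p = 0.336).

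Further downstream, still ahead of Mirg, miR-495-3p and 2 members of the miR-376 group fell. miR-376 hairpins are known targets of A-to-I RNA editing, which can alter the seed, and edited reads were not counted apart here. miR-376c-3p had 69 and 82 UMIs in AMI plasma, against 165 and 126 in Sham plasma, 8.20 ± 0.440 CPM (SD, n = 2) against 21.8 ± 0.0775 (SD, n = 2), a log2 fold change of −1.41 (SE 0.35, adjusted p = 0.0118 from edgeR). miR-376b-5p had 141 and 160 against 288 and 214 UMIs, 16.4 ± 0.344 CPM (SD, n = 2) against 37.6 ± 0.860 (SD, n = 2), at −1.20 (SE 0.35, adjusted p = 0.0237). For both, the groups stood clearly apart. Neither kept its call without AMI 1 (0.181 and 0.288) or without AMI 2 (0.140 and 0.242), and miR-376b-5p also lost it when scaled by the 6 references (0.0518) and with the replicate number as a block (0.0540). miR-495-3p was lower still at −1.57 (SE 0.42, adjusted p = 0.0177) on small counts of 10 and 18 UMIs in AMI plasma, against 33 and 27 in Sham plasma, and its adjusted p was 0.245 without AMI 1.

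The rest of the miR-376 group gave mixed values. miR-376b-3p had 60 and 86 UMIs in AMI plasma, against 87 and 139 in Sham plasma, at −1.16 (SE 0.42, adjusted p = 0.0584), and was called lower in 8 of 16 alternative fits, among them other scalings (RLE 0.0282, library size 0.0173), read counts (0.0345) and the fit without Sham 1 (7.51e-05). miR-376a-5p was at −1.58 (adjusted p = 0.0726) on 6 to 18 UMIs per library. miR-376a-3p, with 50 and 45 UMIs in AMI plasma, against 33 and 39 in Sham plasma, was at −0.09 (adjusted p = 0.927), with overlapping groups, and took a positive sign when scaled by the 6 references (0.08).

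Within Mirg, 4 members fell, and they came from 3 hairpins, Mir496a, Mir541 and Mir369. miR-541-5p was the most abundant of them, with 446 and 425 UMIs in AMI plasma, against 1085 and 1103 in Sham plasma, or 47.5 ± 4.86 CPM (SD, n = 2) against 167 ± 33.1 (SD, n = 2). Its log2 fold change was −1.82 (SE 0.38, adjusted p = 0.00504 from edgeR), and the adjusted p was 0.0801 without AMI 1 and 0.112 without AMI 2. miR-496a-3p had 22 UMIs in each AMI library and 65 and 63 in the Sham libraries, a log2 fold change of −2.02 (SE 0.39, adjusted p = 0.00397), and kept its call without any one library.

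Both arms of Mir369 fell by nearly the same amount. miR-369-5p had 109 and 129 UMIs in AMI plasma, against 260 and 317 in Sham plasma, with a log2 fold change of −1.79 (SE 0.38, adjusted p = 0.00562 from edgeR). miR-369-3p was at 10.3 and 13.2 CPM against 38.0 and 38.4, at −1.70 (SE 0.36, adjusted p = 0.00504). The groups did not overlap for either arm, and both calls were lost without AMI 1 (0.0875 and 0.142) and without AMI 2 (0.0636 and 0.0559).

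Of the 10 most abundant members, 5 did not pass the test, and all 5 had negative log2 fold changes. miR-382-5p, the most abundant, had 1559 and 2145 UMIs in AMI plasma, against 2002 and 1963 in Sham plasma, 200 ± 31.4 CPM (SD, n = 2) against 303 ± 52.1 (SD, n = 2), and its log2 fold change was −0.59, with a 95% interval from −1.39 to 0.20 (adjusted p = 0.247). miR-134-5p, known in rat neurons to limit the size of dendritic spines, was at 43.0 and 47.2 CPM in AMI plasma, against 49.5 and 136.1 in Sham plasma, with a log2 fold change of −1.04 (SE 0.47, adjusted p = 0.123). Its Sham libraries differed more from each other than Sham 1 did from the AMI libraries.

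miR-300-3p showed the same spread, at 49.1 and 55.1 CPM in AMI and 56.5 and 113 CPM in Sham plasma (log2 fold change −0.70, adjusted p = 0.232). For miR-409-3p the groups overlapped, at 37.4 and 44.1 CPM in AMI and 39.3 and 78.7 CPM in Sham plasma (−0.53, adjusted p = 0.364, and a log2 fold change of 0.02 without Sham 2). miR-381-3p was at 68.0 and 56.8 CPM against 70.7 and 80.8 (−0.28, 95% interval from −1.07 to 0.51, adjusted p = 0.614). Without Sham 1, the adjusted p was 0.0387 for miR-382-5p, 6.60e-06 for miR-134-5p, 0.00241 for miR-300-3p and 0.0120 for miR-409-3p, and miR-134-5p was also called by library size (0.0317) and without a filter (0.0439).

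miR-154-5p is a reference of the study in qRT-PCR, chosen for steady levels in miRNA sequencing of AMI and Sham plasma, so its values here are a description. It had 184 and 213 UMIs in AMI plasma, against 192 and 132 in Sham plasma, 21.0 and 22.1 CPM against 25.5 and 22.8, so that the closest libraries of the groups nearly met. Its log2 fold change of −0.16 had a 95% interval from −0.92 to 0.59, and scaling by the references, of which it is one, put it at 0.01.

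**Figure D4:**
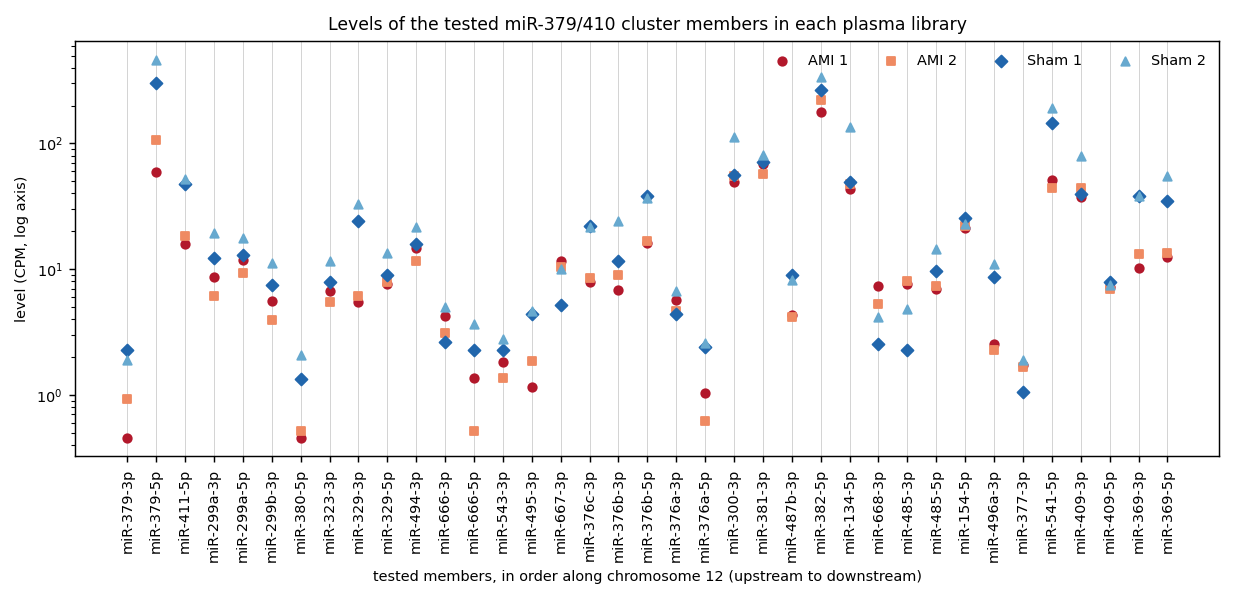
Level (CPM, log axis) of each of the 37 tested members in each library, in chromosomal order, with AMI libraries in red shades and Sham libraries in blue shades. miR-379-5p spans from 59.5 CPM in AMI 1 to 464 CPM in Sham 2, whereas miR-154-5p stays between 21.0 and 25.5 CPM.

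A few 3p members were at higher levels in both AMI libraries, without passing the test. They were singled out after their values had been seen. miR-485-3p had 66 and 78 UMIs in AMI plasma, against 17 and 28 in Sham plasma, or 7.82 ± 0.389 CPM (SD, n = 2) against 3.55 ± 1.83 (SD, n = 2), at a log2 fold change of 1.16 (SE 0.43, adjusted p = 0.0630 from edgeR). It lay just beyond the threshold and was called higher without Sham 2 (1.76, 0.00199), on read counts (1.23, 0.0345), without a filter (1.13, 0.0362) and with piRNA entries in the fit (1.17, 0.0417), and its adjusted p ranged up to 0.245 without Sham 1 (0.69). miR-668-3p had 64 and 51 against 19 and 24 UMIs, at 0.93 (SE 0.41, adjusted p = 0.115). miR-667-3p had 101 and 100 against 39 and 58 UMIs, at 0.54 (SE 0.41, adjusted p = 0.355). Both were called higher without Sham 2 (0.0273 and 0.0467). miR-377-3p was at 0.21 (adjusted p = 0.865) with overlapping groups and only 8 to 16 UMIs per library.

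The arms of some hairpins differed in their log2 fold changes, with opposite signs for Mir485 alone among the 9 hairpins with both arms tested (for Mir376a, Mir409 and Mir666 too when scaled by the 6 references). For each hairpin the log2 ratio of 3p to 5p UMIs was taken within a library. Both arms were in the table for 15 hairpins, and 10 had UMIs on both arms in every library. For Mir485 the ratio was 0.11 and 0.14 in the AMI libraries, against −2.10 and −1.58 with Sham surgery. The 3p arm was thus about level with the 5p arm in AMI plasma and was the minor arm in Sham plasma, a difference of 1.97 in the mean log2 ratio (SE 0.30 from counting alone). miR-485-5p itself was at −0.75 (SE 0.38, adjusted p = 0.164, and 0.0258 without Sham 1), on 61 and 71 UMIs in AMI plasma, against 73 and 84 in Sham plasma.

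Mir329 showed the opposite shift. Its ratio was −0.46 and −0.37 in AMI plasma, against 1.43 and 1.29 in Sham plasma, a difference of −1.78 (counting SE 0.23), so the 3p arm was the major one in Sham plasma and the minor one in AMI plasma. Mir666 and Mir376a differed in the same direction as Mir485, by 1.75 and 1.56, but with counting SEs of 0.53 and 0.51 on few UMIs. Mir666 gave 37 and 30 UMIs of miR-666-3p in AMI plasma, against 20 and 29 in Sham plasma (log2 fold change −0.04) beside 12 and 5 against 17 and 21 UMIs of miR-666-5p (−1.62, adjusted p = 0.0583). miR-666-5p was called lower in 7 of 15 alternative fits, among them RLE (0.0305), library size (0.0297) and the fit without Sham 1 (0.0410).

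Groups did not overlap in 6 of the 10 ratios, where 64.8% of the 196 hairpins of the whole table with both arms counted did not overlap, so this count does not set the cluster apart. Mir299a and Mir379 were the other 2, with differences of −0.54 (counting SE 0.22) and 0.57 (counting SE 0.52). For Mir379 the groups nearly met, at −7.025 in AMI 1 and −7.072 in Sham 1, on 41 UMIs of the 3p arm in all. Mir369, Mir376b, Mir382 and Mir409 had overlapping groups and differences of −0.33 to 0.18. With 2 libraries per group an exact test of such a ratio cannot go below 0.333, and these differences were not otherwise tested.

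**Figure D5:**
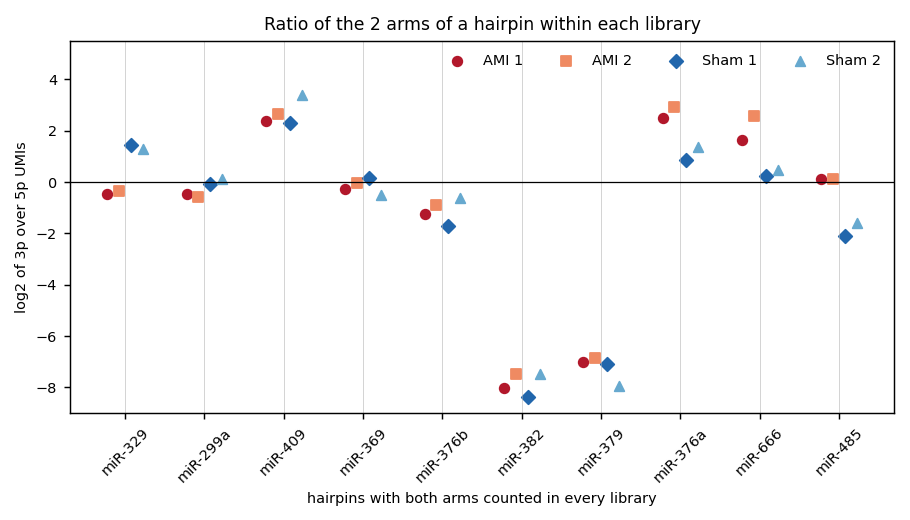
Log2 ratio of 3p to 5p UMIs (y axis) within each library for the 10 hairpins with both arms counted in every library, ordered by the difference between groups. AMI and Sham points stand apart for miR-329 (Sham higher) and for miR-485, miR-666 and miR-376a (AMI higher), and lie together for miR-369.

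By arm, all 15 tested 5p members had negative log2 fold changes, with a median of −1.20, and 5 were called lower, beside 17.2% of all 5p entries tested. Of them miR-154-5p and miR-409-5p took a positive sign (0.01 and 0.05) when scaled by the 6 references. Of the 22 tested 3p members 18 were negative, with a median of −0.68, and 5 were called lower, beside 9.55% of all 3p entries tested. Over all miRNAs the medians of 5p and 3p arms were −0.07 and 0.09, so the arms stood in the same order there.

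Some entries could share reads. The 2 hairpins Mir299a and Mir299b lie on opposite strands of the same place, and their mature miRNAs are nested, with the seed in capitals below.
miR-299a-3p: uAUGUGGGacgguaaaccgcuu
miR-299b-3p: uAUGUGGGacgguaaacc
miR-299a-5p: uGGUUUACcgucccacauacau
miR-299b-5p: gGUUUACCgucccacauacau
The whole of miR-299b-3p is the start of miR-299a-3p, and the whole of miR-299b-5p is contained in miR-299a-5p, so how their UMIs divide rests on the ends of the reads and on a counting rule not given in the sources used here. miR-299a-3p and miR-299b-3p gave similar values, at −1.10 and −0.96 (adjusted p = 0.0573 and 0.0972), and miR-299a-5p was at −0.54 (0.298). miR-299a-3p was called lower in 9 of 16 alternative fits, among them DESeq2 (0.0347), RLE (0.0305), library size (0.0262), read counts (0.0474) and the fit without Sham 1 (0.000819), and miR-299b-3p only without Sham 1 (0.00809). Another close pair, with 1 base of difference and a shared seed, is miR-376b-5p (above) and miR-376c-5p.
miR-376c-5p: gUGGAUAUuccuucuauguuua
miR-376c-5p had 0 and 2 UMIs in AMI plasma, against 12 and 0 in Sham plasma, beside 141 to 288 per library for miR-376b-5p. miR-376a-3p with miR-376b-3p, and miR-300-3p with miR-381-3p, differed by 3 edits.

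The remaining tested members were lower in AMI plasma by value without passing. miR-487b-3p was the nearest, with 38 and 40 UMIs in AMI plasma, against 67 and 47 in Sham plasma, with a log2 fold change of −1.003 (SE 0.37, adjusted p = 0.0609) and a call in 6 of 16 alternative fits, among them DESeq2 (0.0314) and the fit without Sham 2 (0.0275). miR-323-3p, miR-494-3p and miR-543-3p were at −0.66, −0.50 and −0.65, miR-409-5p was at −0.12, and miR-380-5p was at −1.75 on 4 to 12 UMIs per library (SE 1.01).

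The 8 members that were too rare to test had mean counts of 3.25 to 8.75 UMIs per library. Of these, 7 stood at 0 in both libraries of AMI 1 with Sham 2 (5 members, among them miR-410-3p, the namesake of the downstream end) or of AMI 2 with Sham 1 (2 members). Over the whole table no entry had a larger count of 1 to 9 UMIs in either of these pairs, while the other pairs of libraries had 71 to 169 such entries. A 0 in these pairs may therefore be a count that was not listed, and no fold is given. miR-410-3p had 2 UMIs in AMI 2 and 12 in Sham 1, and it shares its seed with miR-344d-3p from outside the cluster. miR-412-5p had 12 and 15 UMIs in the same libraries. The eighth, miR-382-3p, had 6 to 12 UMIs in every library. Of the 33 numbers of the rule 6 had no entry (miR-539, miR-544, miR-654, miR-679, miR-758 and miR-1197).

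Members were lower on both sides of the start of Mirg. The 24 tested members upstream of Mirg had a median log2 fold change of −1.05 with 6 called lower, and the 13 within Mirg a median of −0.59 with 4 called lower, where 12.7% of all miRNAs tested were called lower. The range was −2.28 to 0.54 upstream and −2.02 to 1.16 within Mirg, so the stretches overlapped almost wholly, and the difference was not tested.

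The other miRNAs of the Dlk1-Dio3 region, mostly from the Meg3, Rtl1 antisense and Rian parts and next to the cluster, also had calls in the lower direction. They include miR-453, which was too rare to test. Its hairpin lies within the stretch of the cluster, but its number is not in the rule. Of 29 such entries 26 were tested, 8 (30.8%) were called lower and 0 higher, beside 12.7% and 14.8% of all miRNAs tested, with a median log2 fold change of −0.48. AMI lay wholly below Sham in 42.3% of these, beside 81.1% of the tested cluster members and 30.4% of all miRNAs tested. Next to the other entries, the summed UMIs of the cluster kept nearly the same proportion in AMI 2 and both Sham libraries, but not in AMI 1. Its UMIs were 1.16, 1.15 and 1.17 times those of the other entries in AMI 2, Sham 1 and Sham 2, and 0.981 times in AMI 1. miR-127-3p, from opposite Rtl1, had 1448 and 1670 UMIs in AMI plasma, against 2753 and 2817 in Sham plasma, with a log2 fold change of −1.33 (SE 0.36, adjusted p = 0.0190).

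Markers of tissues where the cluster is known to be made moved in different ways. Of 7 neuronal miRNAs, all counted in every library, 3 were called higher in AMI plasma and 1 (miR-219a-5p) lower, and their summed level was 2374 to 2720 CPM in AMI and 956 to 1401 in Sham plasma. That sum is mostly miR-128-3p (log2 fold change 1.34), which is not confined to neurons, so it does not give the direction of the others. The next most abundant, miR-218-5p, was at 62.6 and 101.6 CPM in AMI and 139.4 and 219.8 in Sham plasma. The log2 fold change of miR-218-5p was −1.13 (adjusted p = 0.0614 from edgeR). miR-219a-5p and miR-138-5p were also negative (−1.36 and −0.34), while miR-9-5p, miR-137-3p and miR-124-3p were positive (1.52, 3.59 and 0.50). The skeletal muscle miR-206-3p was at 2459 and 3856 CPM in AMI and 6561 and 5709 CPM in Sham plasma (log2 fold change −0.96, adjusted p = 0.0808). The cardiac and other striated muscle markers were all higher in AMI plasma (4 of 4 called), and 2 embryonic and placental markers had no entry. What part any of these tissues had in the levels of the cluster was not tested.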

How the data were processed

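Plasma small RNA of 2 AMI and 2 Sham libraries was sequenced with a Qiagen microRNA kit. For each mature miRNA and piRNA entry the deposited table holds raw UMI counts and raw read counts, made by the authors. Their processing notes name bcl2fastq 2.18.0.12 and the build mm10. No source used here gives the aligner, the miRNA annotation or a filter. Of the table, 1 heading line that names no entry was left out.

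Members were found by their numbers in the entry names. UMI counts of all miRNA entries were fitted with edgeR 4.0.16 in R 4.3.3 (filterByExpr by group, TMM, robust quasi-likelihood test, two-sided), with Benjamini-Hochberg adjustment over the 772 entries that passed the filter. CPM uses the TMM factors. Intervals are 95% and arm ratios needed 10 UMIs on each arm. Intervals from counts cover counting error only. Sequences and hairpins came from RefSeq (GRCm38.p6) and host genes from GENCODE vM21 (GRCm38, the same build as mm10).

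Named with values were members past the threshold, the 10 with the most UMIs, miR-154-5p, their other arms and members sharing a seed, and others where said. The members and lists were chosen with earlier results of these data known. Alternatives were DESeq2 1.42.0, other scalings and filters, read counts, piRNA entries in the fit, leaving out each library, and a block for replicate number. A crossed block and a fit that dropped entries at 0 in AMI 1 with Sham 2 or in AMI 2 with Sham 1 were chosen after seeing the data.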

Additional observations from a re-analysis of the deposited data

How the results depend on the processing

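Each alternative changed 1 choice. The count of members lower in AMI plasma (10) was 9 to 15 in the other fits with 4 libraries, and 2 to 19 when 1 library was left out. It was 16 once entries at 0 in AMI 1 with Sham 2 or in AMI 2 with Sham 1 were dropped. The share called lower over all entries tested, 12.7% in the main fit, moved as well. That share was 9.59% (6 references) to 19% (library size) in the other fits with 4 libraries, and 16.3% after the drop. The count of members higher (0) was 1, miR-485-3p, without a filter, on read counts, with piRNA entries, with the crossed block and after that drop, and 0 to 3 when 1 library was left out. The median log2 fold change (−0.96) was −1.24 by library size, −0.67 with at least 10 UMIs in every library, where 32 members were tested, and −1.11 to −0.58 when 1 library was left out. With the replicate number as a block 9 members were lower, all among the 10, with miR-376b-5p lost (0.0540), beside 9.84% of all miRNAs. The labels pair libraries by number only, and same-numbered libraries deviated from their group means with a correlation of −0.17 across the 772 miRNAs (−0.0096 after that drop). Crossed, joining AMI 1 with Sham 2, the block gave 15 lower and 1 higher. Over all miRNAs 212 calls became 79 without AMI 1 and 95 without AMI 2. The AMI share of the cluster, 0.0679% of UMIs, was 0.0631% of reads and 0.0498% without miR-382-5p.

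The sign changed in 12 cases over 6 members, and none of the 6 passed the test with all 4 libraries. The furthest of them from 0 in the main fit was miR-409-3p, at −0.53, which changed sign only without Sham 2. Scaled by the 6 references miR-154-5p was at 0.0060, miR-376a-3p at 0.079, miR-409-5p at 0.048 and miR-666-3p at 0.13. By library size miR-377-3p was at −0.084, and miR-666-3p was at 0.012 with at least 10 UMIs in every library. With 1 library left out, miR-376a-3p ranged from −0.38 to 0.21, miR-409-3p from −0.95 to 0.023, miR-666-3p from −0.46 to 0.43 and miR-377-3p from −0.18 to 0.63. The causes were not tested. Members under about 20 UMIs per library have standard errors of 0.47 to 1.01, which limits what can be seen of them.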

Other observations

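Base composition went with the fold changes, as a description chosen after the values had been seen. Over the 34 tested members with a sequence, the share of G and C in the mature miRNA and the log2 fold change had a Pearson r of 0.46 and a Spearman rho of 0.44. The 13 members with at least 50% G and C had a median log2 fold change of −0.59 and the 21 others one of −1.54. miR-369-3p, with 23.8% the lowest among the members, was at −1.70, and miR-485-3p (54.5%) and miR-668-3p (66.7%) were at 1.16 and 0.93. Against this trend, miR-666-3p and miR-666-5p, the highest with 68.2%, were at −0.04 and −1.62, and miR-377-3p (36.4%) was at 0.21. Over the 657 tested miRNAs with a sequence r was 0.14 and rho 0.21, with medians of 0.21 and −0.21 on the same split. Over the 26 other Dlk1-Dio3 miRNAs r was 0.56 and rho 0.62, with medians of −0.40 and −1.02. miRNAs of 1 table share their libraries and are not independent, so no test is given, and what part base composition had in the differences was not tested.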
